A study of Mus musculus with 8 samples.

Results

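The tricarboxylic acid (TCA) cycle, the entry of pyruvate into it and the reactions that refill it were followed through 31 nuclear genes, picked by name from the 12367 genes of the expression table. All 31 were in the table once, and all passed the filter on low values. The libraries were made from polyadenylated RNA of alveolar macrophages, the resident macrophages of the lung air spaces, sorted from untreated 3-week-old mice as CD45+ F4/80+ CD11c+ cells. The KO group was CD11c-Cre Tfam-fl/fl, in which a Cre recombinase driven by CD11c cuts floxed Tfam. The Tfam protein packages mitochondrial DNA and takes part in its transcription. The WT group was Tfam-fl/fl, with the same floxed alleles and no Cre. There were 4 libraries a group, and 3 to 5 mice, male and/or female, were pooled for every library. CD11c is also present on dendritic cells, so the Cre is not limited to alveolar macrophages, and without a group of Cre alone an effect of the Cre and one of losing Tfam cannot be told apart. The comparison is KO against WT, in a series on oxidative phosphorylation in tissue macrophages.

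Pyruvate made by glycolysis crosses the inner mitochondrial membrane through a carrier of 2 proteins and is oxidised to acetyl-CoA by the pyruvate dehydrogenase complex, which kinases switch off and phosphatases switch on. The TCA cycle burns acetyl-CoA to carbon dioxide and passes electrons to NADH and to succinate dehydrogenase, which hand them to the respiratory chain. Carbon that leaves the cycle for biosynthesis is replaced by anaplerosis, through pyruvate carboxylase and glutamate. Aspartate aminotransferases are enzymes of the exchange of reducing power and nitrogen between cytosol and mitochondria. In macrophages the cycle is also known as the source of citrate for lipids and of the immune metabolites succinate and itaconate.

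Values are on a normalised per-million-reads scale. Fold changes are KO over WT of log2(value + 1); for low genes this scale makes changes look smaller. A gene was called when its limma p, adjusted over all 12163 tested genes, was under 0.05. The libraries held 20243772 to 30263201 reads in the listed genes, and 3 reads correspond to a value of 0.1 to 0.152. That floor covers counting error only. Tfam was lower in every KO library, at 4.52, 5.08, 4.29 and 3.52 in KO against 26.1, 35.2, 30.3 and 29.7 in WT (log2 fold change -2.55, adjusted p by limma = 1.02e-06). All 13 alveolar macrophage markers listed were present, 3 of them higher and 6 lower in KO, with a summed value of 33117 to 38785 in KO and 33012 to 35237 in WT. Of the lists for T and NK cells and for eosinophils, 0 genes were in the table. The type 2 epithelial markers summed to 42.3 to 106 in KO and 29.0 to 137 in WT, and those of endothelium and fibroblasts to 34.4 to 66.8 in KO and 23.1 to 109 in WT. Of 8 tested interstitial macrophage markers 5 were higher in KO, and the list summed to 2899 to 3414 in KO and 2739 to 3454 in WT. All 10 proliferation markers were lower in KO, with a summed value of 201 to 275 in KO and 561 to 922 in WT. Of the tested markers, 1 of 4 for monocytes (summing to 36.8 to 85.7 in KO and 25.5 to 42.6 in WT) and 1 of 6 for dendritic cells (15.4 to 28.2 in KO and 14.3 to 20.6 in WT) were higher in KO. Of 4 for neutrophils 1 was higher and 2 were lower (92.3 to 137 in KO and 79.3 to 117 in WT). That sum joins opposite changes. Cxcr2 averaged 75.1 in KO and 13.3 in WT, Csf3r 18.8 and 56.1, and S100a9 3.82 and 11.9. Of 2 for B cells 0 changed (4.09 to 5.18 in KO and 2.17 to 5.75 in WT). The part of these shifts in the results below was not tested, and in bulk RNA fewer cells of a type and less RNA per cell cannot be told apart.

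In KO macrophages the cytosolic aspartate aminotransferase gene Got1 was higher and the pyruvate dehydrogenase kinase genes Pdk2, Pdk3 and Pdk4 were lower than in WT. Of the 31 genes, 5 rose (Mpc1, Pdhx, Idh3b, Pcx and Got1), 8 fell (Mpc2, Pdk2, Pdk3, Pdk4, Idh1, Me2, Got2 and Glud1) and 18 did not pass the test. The 13 called genes were 41.9% of the members, near the background of 38.7% among all tested genes (18.7% higher and 20.0% lower in KO). In 12 members the groups did not overlap, 4 of them higher and 8 lower in KO, where 37.7% of all tested genes did not overlap. The median log2 fold change was -0.02 over the members and -0.0063 over all tested genes. The called members ranged from -1.39 for Pdk4 to 1.303 for Got1. By place in the pathway, 2 of 2 carrier genes, 3 of 5 genes of kinases and phosphatase and 5 of 5 genes of anaplerosis and transamination were called. The calls numbered 1 of 5 genes of the pyruvate dehydrogenase complex, 2 of 6 of citrate synthase and isocitrate dehydrogenases, 0 of 5 of 2-oxoglutarate dehydrogenase and succinyl-CoA ligase, and 0 of 3 of fumarase and malate dehydrogenases. The 18 members not called lay between -0.46 and 0.19, with limma adjusted p from 0.0581 to 0.971.

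Libraries with the same replicate number deviated together. With that number as a block 8 members rose and 11 fell, and calls covered 46.7% of the 12163 genes, 22.4% up and 24.3% down in KO. The 6 genes added by the block were Dld, Cs and Idh2, higher, and Pdk1, Dlst and Suclg2, lower. Leaving out KO replicate 1, 2 or 3, or any WT library but replicate 1, brought the risen members to 3, and leaving out KO replicate 4 brought them to 8. The fallen members numbered 8 to 10 in these fits.

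**Figure D1:**
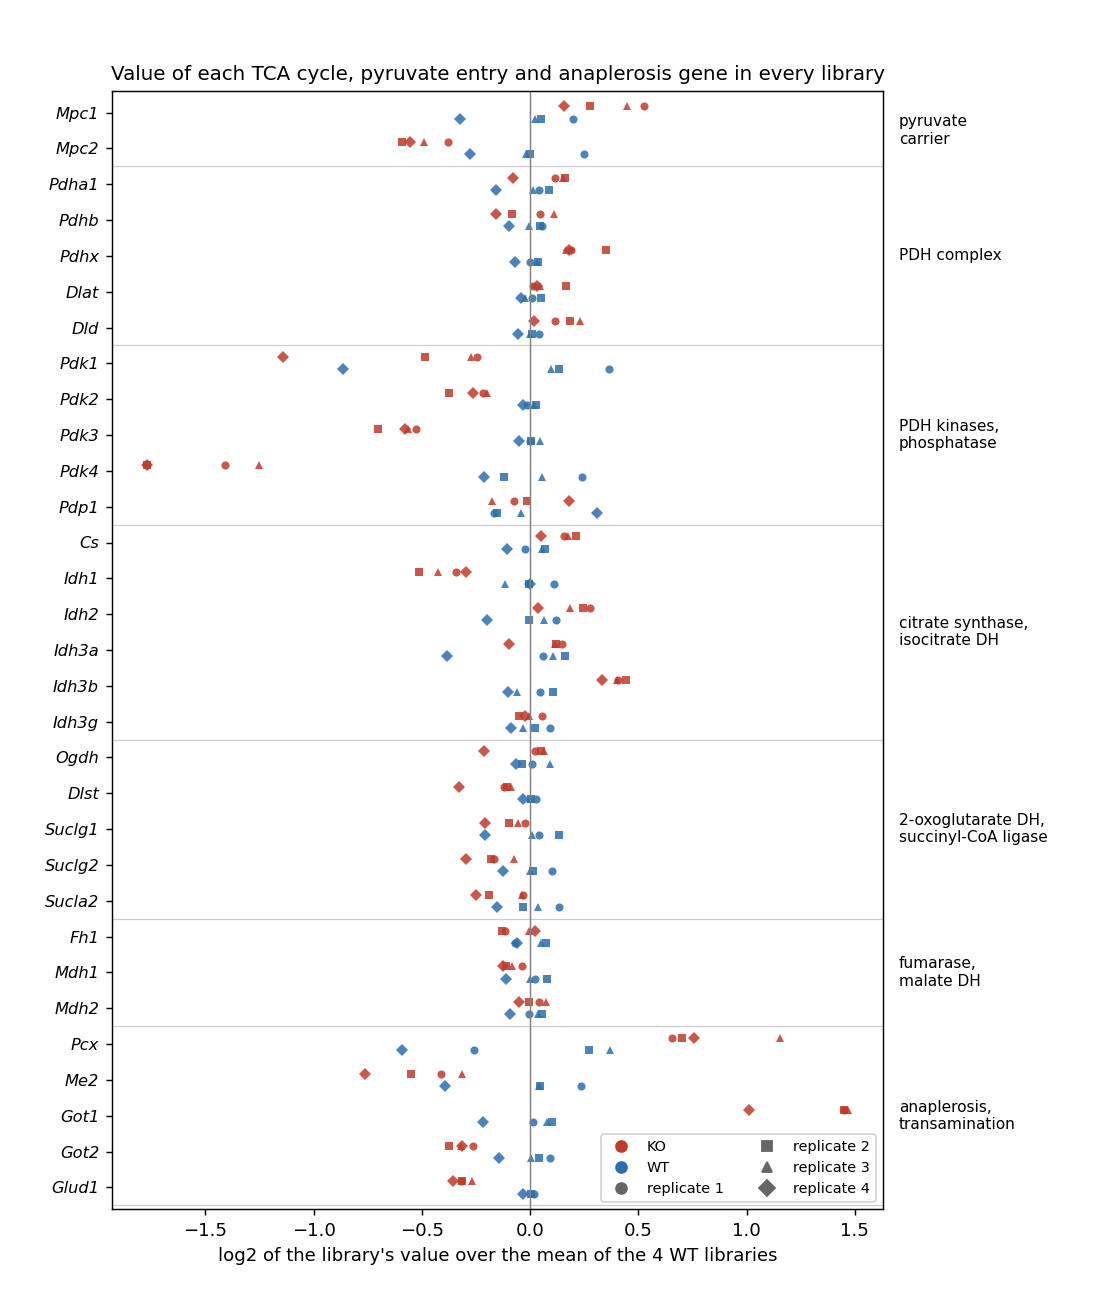
Log2 of each library's value over the mean of the WT libraries, for each of the 31 genes in order of their place in the pathway, with KO points drawn above WT points and marker shapes for replicates 1 to 4. Got1 in KO lies far to the right and Pdk4 in KO far to the left, while most genes of the cycle itself overlap between KO and WT.

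Both genes of the mitochondrial pyruvate carrier changed, in opposite directions. Mpc1, a subunit of the carrier, had values of 167, 140.1, 158 and 129 in KO and 133, 119.7, 117 and 92.5 in WT. The groups overlapped, since the lowest KO library lay below the highest WT library, but KO was higher in 4 of 4 same-numbered pairs. Its log2 fold change was 0.36 (standard error 0.116; adjusted p by limma = 0.0327), and the call was lost in 6 of the 8 fits that leave out a library, all but those without KO replicate 4 or WT replicate 1 (adjusted p by limma from 0.0503 to 0.0897). Mpc2 had 51.0, 44.0, 47.2 and 45.2 in KO and 78.7, 66.4, 65.5 and 54.6 in WT, and every KO library was below every WT library. Its log2 fold change was -0.48 (standard error 0.101; adjusted p by limma = 0.00427). Within a library the log2 ratio of Mpc1 to Mpc2 was 1.51 to 1.74 in KO and 0.76 to 0.85 in WT, a description of a pair singled out after its values were seen. Of the 2175 words of 50 bases in Mpc1 transcripts, 240 also occur in its processed pseudogene Mpc1-ps, and its exons overlap a transcript on the other strand, 4930506C21Rik. Both were low beside Mpc1: Mpc1-ps was at most 2.22 in KO and 1.62 in WT, and 4930506C21Rik at most 1.54 in KO and 1.20 in WT.

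Of the pyruvate dehydrogenase complex 1 of 5 genes was called. Pdhx, which encodes the protein that tethers the E3 enzyme to the core, had 18.8, 21.02, 18.5 and 18.7 in KO and 16.5, 16.9, 16.9 and 15.7 in WT. Every KO library was above every WT library, with a log2 fold change of 0.21 (standard error 0.068; adjusted p by limma = 0.0346). This small rise lost its call in 7 of the 8 fits that leave out a library (adjusted p from 0.0525 to 0.0912), all but the one without KO replicate 4. The E1 subunits Pdha1, on the X chromosome, and Pdhb averaged 131 ± 9.84 and 92.0 ± 7.73 in KO and 123 ± 8.97 and 93.1 ± 4.41 in WT (SD, n = 4). The E2 gene Dlat averaged 75.3 ± 3.67 in KO and 72.0 ± 1.97 in WT. The limma adjusted p of these 3 lay between 0.366 and 0.856, with 95% intervals of the log2 fold change of -0.07 to 0.25 for Pdha1, -0.17 to 0.13 for Pdhb and -0.05 to 0.18 for Dlat. Dld, the E3 enzyme shared with 2-oxoglutarate dehydrogenase, had 181 ± 11.3 in KO and 164 ± 4.58 in WT, with a limma adjusted p of 0.077, and 0.0441 with the replicate block.

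Of the kinases that phosphorylate and silence the complex, 3 of 4 fell. Pdk4, the kinase induced by fasting and fatty acids, had 6.17, 4.81, 6.89 and 4.80 in KO and 19.3, 15.1, 17.0 and 14.1 in WT. The highest KO library was below the lowest WT library, and the log2 fold change was -1.39 (standard error 0.134; adjusted p by limma = 4.61e-05). Pdk3 had 27.6, 24.4, 26.9 and 26.6 in KO and 39.7, 39.8, 41.0 and 38.3 in WT, again without overlap. Its log2 fold change was -0.57 (standard error 0.0589; adjusted p by limma = 6.47e-05). Pdk2, the broadly expressed isoform, had 17.8, 16.0, 18.0 and 17.2 in KO and 20.5, 21.1, 20.9 and 20.2 in WT, a smaller fall with no overlap (log2 fold change -0.25, standard error 0.0641; adjusted p by limma = 0.0119).

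Pdk1, which is known as a hypoxia-inducible isoform, had 69.8, 59.1, 68.7 and 37.6 in KO and 107, 90.8, 88.5 and 45.5 in WT. Replicate 4 was the lowest library of each group, and KO was lower in 4 of 4 same-numbered pairs. The unblocked log2 fold change of -0.46 did not pass (standard error 0.270; adjusted p by limma = 0.211), whereas with the replicate block the adjusted p was 0.000819 and without both replicate-4 libraries 0.00233. The unblocked value turned on single libraries: without KO replicate 4 it was -0.26 (adjusted p by limma = 0.447), and without WT replicate 4 it was -0.72 (adjusted p by limma = 0.0179). Pdp1, a phosphatase that reactivates the complex, had 17.8 ± 1.89 in KO and 17.9 ± 2.93 in WT (limma adjusted p = 0.971). Per kb of annotated exon the kinases came in the order Pdk3, Pdk1, Pdk2 and Pdk4 in both groups. These levels were 10.3 ± 0.532, 7.56 ± 1.92, 5.45 ± 0.290 and 1.61 ± 0.295 in KO and 15.5 ± 0.427, 10.7 ± 3.37, 6.54 ± 0.128 and 4.66 ± 0.654 in WT. Pdk1 and Pdk2 overlapped between libraries in each group, and the other neighbours in that order did not. The summed level of the 4 kinases per kb was 22.0 to 27.1 in KO and 31.2 to 41.2 in WT, so all KO libraries were below all WT libraries. Pdk4 made up 6.44% ± 0.615 of that sum in KO and 12.5% ± 0.899 in WT.

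**Figure D2:**
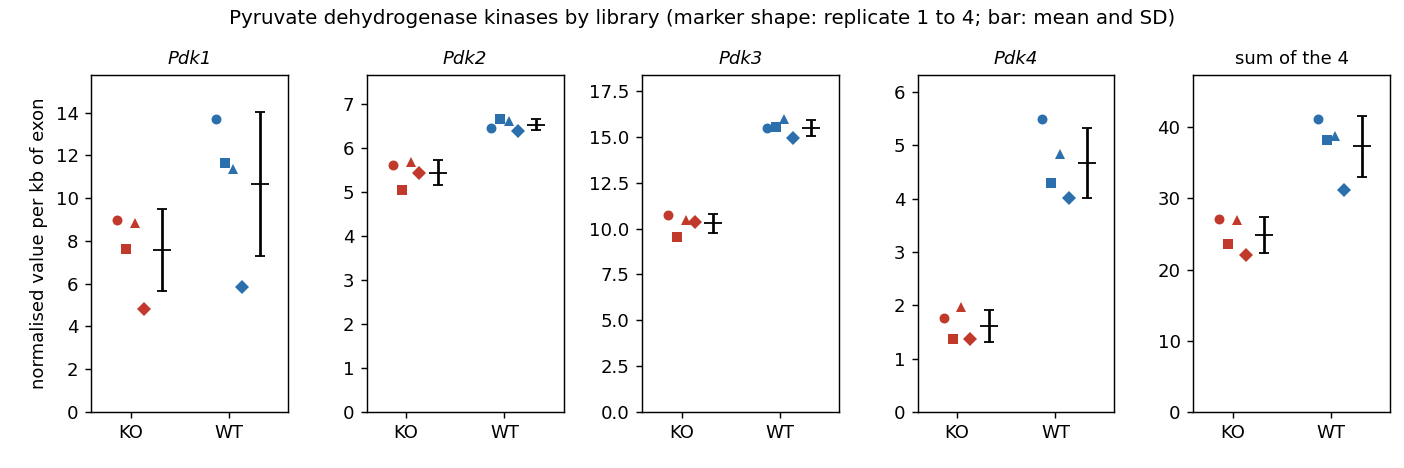
Normalised value per kb of annotated exon of the pyruvate dehydrogenase kinases Pdk1 to Pdk4 and of their sum, with 1 point per library (marker shape gives the replicate) and a bar for mean and SD of 4 libraries. KO libraries lie below WT libraries without overlap for Pdk2, Pdk3, Pdk4 and the sum, and the replicate 4 points of Pdk1 are low in KO and in WT.

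Among the enzymes from citrate to 2-oxoglutarate, Idh3b rose and Idh1 fell. Idh3b, a regulatory subunit of the NAD-linked isocitrate dehydrogenase of the cycle, had 121, 125, 121 and 115 in KO and 94.5, 98.7, 87.9 and 85.4 in WT. Every KO library was above every WT library (log2 fold change 0.39, standard error 0.0579; adjusted p by limma = 0.000548). The catalytic subunit Idh3a averaged 63.1 ± 4.79 in KO and 59.9 ± 9.54 in WT, and the second regulatory subunit, Idh3g, 110.4 ± 3.41 in KO and 111 ± 5.97 in WT. Neither passed the test (limma adjusted p = 0.601 and 0.961). The difference between the subunits was not tested. Idh3b shares 5 bases of exon with Nop56 on the other strand, and Nop56 had 67.3 ± 8.53 in KO and 68.5 ± 3.59 in WT.

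Idh1, the cytosolic and peroxisomal NADP-linked enzyme, had 342, 303, 322 and 352 in KO and 467, 431, 399.5 and 433 in WT. The groups did not overlap, with a log2 fold change of -0.39 (standard error 0.0648; adjusted p by limma = 0.00114). Its mitochondrial counterpart Idh2 had 90.4, 88.5, 84.8 and 76.6 in KO and 81.1, 74.5, 77.9 and 65.0 in WT. Idh2 was higher in KO in 4 of 4 pairs, but the limma adjusted p was 0.0901, and 0.0131 with the replicate block. Citrate synthase, Cs, which starts the cycle, had 259 ± 12.4 in KO and 233 ± 12.9 in WT, with a limma adjusted p of 0.063 and of 0.0183 with the block. Its call also appeared under median centring (0.0357).

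The 8 members from 2-oxoglutarate dehydrogenase to malate dehydrogenase gave no call. Ogdh, the E1 enzyme of 2-oxoglutarate dehydrogenase, averaged 304 ± 26.3 in KO and 307 ± 14.7 in WT, with a 95% interval of the log2 fold change of -0.17 to 0.14. Its E2 gene Dlst had 154, 155, 157 and 133 in KO and 171, 168, 167 and 164 in WT. All KO libraries of Dlst were below all WT libraries, yet the limma adjusted p was 0.0581 (log2 fold change -0.16), and 0.0302 with the replicate block. The succinyl-CoA ligase genes Suclg1, the shared alpha subunit, Suclg2, the GTP-forming beta subunit, and Sucla2, the ATP-forming beta subunit, had log2 fold changes of -0.09, -0.17 and -0.12. Each of these 3 was lower in KO in 4 of 4 pairs, and only Suclg2 passed with the block (limma adjusted p = 0.0279, against 0.0665 without it). Of the 4536 words of Suclg2, 724 are shared with the pseudogene Gm15163, which is not analysed here. Fumarase, Fh1, averaged 50.5 ± 2.75 in KO and 52.4 ± 2.68 in WT. The malate dehydrogenases Mdh1, cytosolic, and Mdh2, mitochondrial, averaged 166 ± 4.53 and 154 ± 5.75 in KO and 177 ± 9.53 and 153 ± 6.92 in WT. The limma adjusted p of Fh1, Mdh1 and Mdh2 lay between 0.217 and 0.843, and their 95% intervals of the log2 fold change stayed within -0.20 and 0.13.

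**Figure D3:**
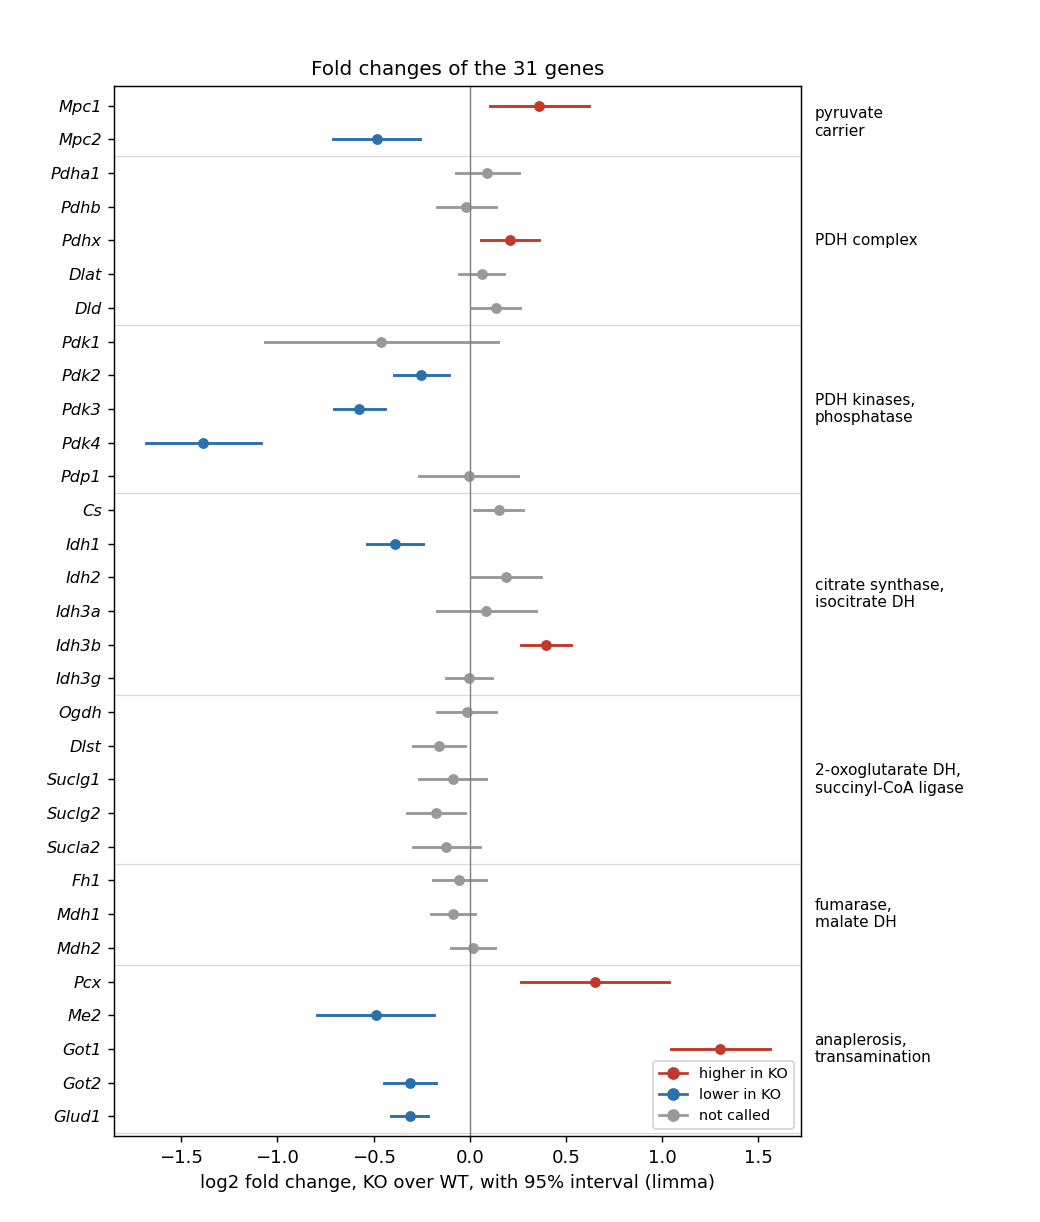
Log2 fold change, KO over WT, with its 95% interval from limma for the 31 genes in pathway order, coloured by whether the gene was higher, lower or not called at an adjusted p under 0.05. The carrier and the anaplerotic genes are all called, and the interval of Pdk1 is the widest.

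All 5 genes of anaplerosis and transamination were called. Got1, the cytosolic aspartate aminotransferase, was the member with the largest rise. The gene (ENSMUSG00000025190, GRCm38, minus strand, chr19:43499752-43524605) had 49.3, 49.3, 49.9 and 36.3 in KO and 18.2, 19.4, 19.1 and 15.5 in WT. The lowest KO library, replicate 4, was still well above every WT library, and the log2 fold change was 1.303 (standard error 0.114; adjusted p by limma = 2.71e-05). Got2, the mitochondrial aspartate aminotransferase, had 78.5, 72.6, 75.6 and 75.9 in KO and 100.3, 96.9, 94.5 and 85.2 in WT. It fell without overlap between the groups (log2 fold change -0.31, standard error 0.0599; adjusted p by limma = 0.00269). Of the words of Got2, 16.8% are shared with the pseudogene Got2-ps1, which is not analysed here.

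Pcx, pyruvate carboxylase, which makes oxaloacetate from pyruvate, had 3.83, 3.96, 5.41 and 4.11 in KO and 2.03, 2.94, 3.14 and 1.62 in WT. It rose in KO with no overlap (log2 fold change 0.65, standard error 0.171; adjusted p by limma = 0.0138) at a low level of 48 to 116 reads per library. Me2, the mitochondrial malic enzyme, had 161, 147, 172 and 126 in KO and 252, 221, 221 and 163 in WT. KO was lower in 4 of 4 pairs, although the highest KO library exceeded WT replicate 4 (log2 fold change -0.49, standard error 0.135; adjusted p by limma = 0.017). Glud1, glutamate dehydrogenase, which turns glutamate into 2-oxoglutarate, had 466, 467, 483 and 454 in KO and 588, 582, 585 and 569 in WT. The libraries of each group lay close together and the groups were far apart (log2 fold change -0.31, standard error 0.0423; adjusted p by limma = 0.000318). Of the 4207 words of Glud1, 273 are shared with 2 other genes, among them Glud-ps, which are not analysed here.

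The balance of paired genes was compared within libraries, where a library's scale cancels, over 5 log2 ratios with two-sided exact permutation tests. These ratios were chosen with earlier results of these data known, so their p-values are not independent of the fold changes above. The ratio of Got1 to Got2 was -0.67, -0.56, -0.60 and -1.06 in KO and -2.46, -2.32, -2.31 and -2.46 in WT, a difference of 1.67 (exact p = 0.0286, adjusted p = 0.0357). The ratio of Idh1 to Idh2 averaged 1.95 ± 0.178 in KO and 2.54 ± 0.156 in WT, a difference of -0.58. That of Mdh1 to Mdh2 averaged 0.11 ± 0.0376 in KO and 0.21 ± 0.029 in WT, a difference of -0.10. That of Pcx to Pdha1, the carboxylating and the oxidising route of pyruvate, averaged -4.93 ± 0.228 in KO and -5.71 ± 0.378 in WT, a difference of 0.78. Each of these 4 ratios had no overlap between the groups and the exact p of 0.0286, the smallest that 4 against 4 libraries allow (adjusted p = 0.0357). The difference in Mdh1 to Mdh2 was small, and neither gene was called by itself. Leaving out any single KO library took the Pcx to Pdha1 ratio to an adjusted p of 0.0714 in the exact test, and leaving out WT replicate 4 did so for Idh1 to Idh2. The ratio of Sucla2 to Suclg2 averaged 0.30 ± 0.0595 in KO and 0.25 ± 0.0415 in WT and did not pass (exact p = 0.143, adjusted p = 0.143).

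**Figure D4:**
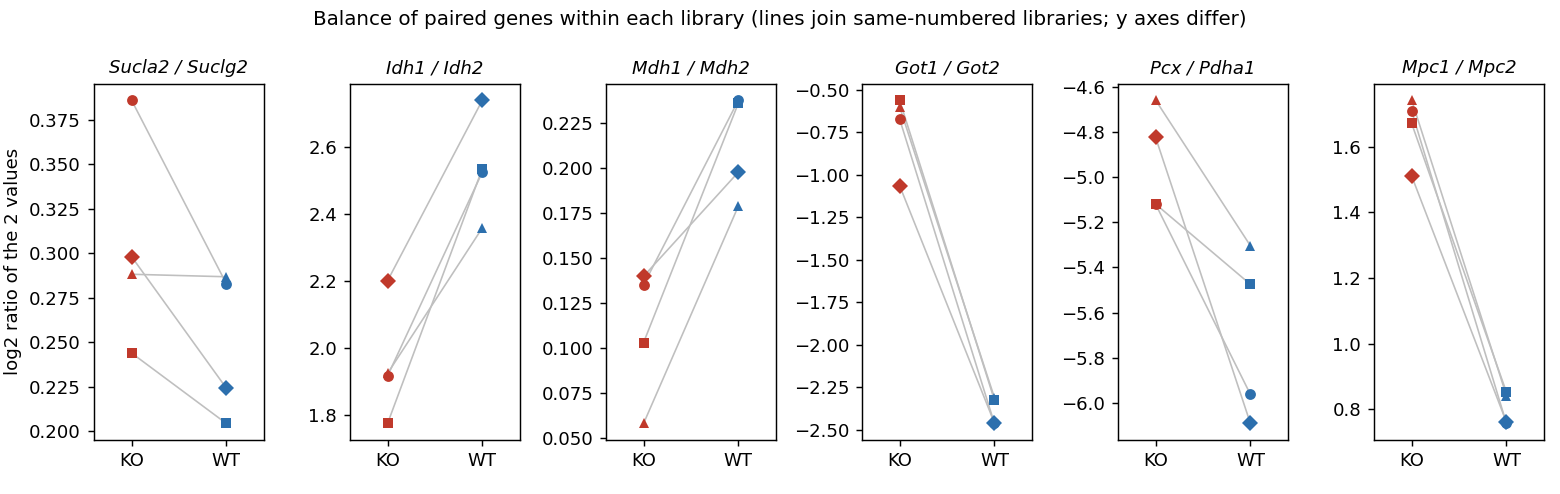
Log2 ratio of the values of 2 genes within each library, with lines joining same-numbered KO and WT libraries and a separate y axis per panel. Mpc1 over Mpc2 was chosen after its values were seen, and the other ratios with earlier results of these data known. Got1 over Got2 is higher in every KO library and Idh1 over Idh2 is lower in every KO library, while Sucla2 over Suclg2 overlaps.

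Outside the 31, other genes of the same reactions were read from a list of 51, of which 46 were tested, 14 rose and 9 fell, with a median log2 fold change of 0.04. That is 50.0% called, against 38.7% of all tested genes. Succinate dehydrogenase, which turns succinate into fumarate, is a step that the members leave out. Its iron-sulfur subunit Sdhb had 91.2 ± 7.98 in KO and 75.0 ± 7.02 in WT. Sdhb rose (log2 fold change 0.28, adjusted p by limma = 0.027), as did the assembly factors Sdhaf1 and Sdhaf4, while Sdhaf2 fell. The cytosolic enzyme gene Aco1 also fell, at 97.2 ± 7.51 in KO and 135 ± 2.73 in WT. Sdha, Sdhc and Sdhd did not pass.

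Genes at the borders of the pathway changed in both directions. Pck2, the mitochondrial enzyme that makes phosphoenolpyruvate from oxaloacetate, had 55.5 ± 16.8 in KO and 19.4 ± 2.78 in WT (log2 fold change 1.42, standard error 0.229; adjusted p by limma = 0.000974). Gpt2, the mitochondrial alanine aminotransferase, had 23.2 ± 4.85 in KO and 13.4 ± 1.97 in WT, and the glutamate carrier Slc25a22 had 26.5 ± 0.813 in KO and 20.2 ± 2.99 in WT. Both of these rose. The monocarboxylate transporter Slc16a1 rose, at 32.5 ± 5.92 in KO and 19.1 ± 2.93 in WT. Of low genes, Acod1, which makes itaconate, had 2.86 ± 1.0 in KO and 0.647 ± 0.364 in WT, and the cytosolic malic enzyme Me1 had 3.37 ± 1.16 in KO and 0.956 ± 0.537 in WT. Both rose, Acod1 on as few as 6 reads in a library. Ldhb rose too, at 2.35 ± 0.342 in KO and 1.07 ± 0.226 in WT. Also higher were Dbt, Pcca and Adhfe1.

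In the other direction, glutamine synthetase Glul had 684 ± 72.0 in KO and 1068 ± 113 in WT (log2 fold change -0.64, standard error 0.094; adjusted p by limma = 0.000538). Pdpr, the regulatory subunit of the pyruvate dehydrogenase phosphatase, had 25.2 ± 2.21 in KO and 38.0 ± 1.55 in WT (log2 fold change -0.58, adjusted p by limma = 0.000206). The aspartate-glutamate carrier Slc25a13 had 8.35 ± 0.474 in KO and 11.8 ± 1.05 in WT, and its relative Slc25a12 did not pass. ATP-citrate lyase Acly had 305 ± 19.9 in KO and 373 ± 39.3 in WT. The remaining fallen genes were Ldha, Bckdha and D2hgdh.

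Promoters were read for the genes that stood out upward, since Got1 had the largest log2 fold change of the members and Pck2 that of the listed neighbours. Of the 31 members 28 had a RefSeq promoter sequence, covering 250 bases before to 50 after the start. The core of the composite site of C/EBP and ATF factors, TGATGNAA, was searched on both strands. It was found in the promoters of 1 of 28 members, Got1, and of 1 of 37 neighbouring genes with a promoter, Pck2. By promoter it was in 1 of the members' 38 (2.63%) and 1 of the neighbouring genes' 46, against 3.97% of all 32851. Counted from the start, the match begins at -102 in Got1 and at -103 in Pck2, in each case on the reverse strand. The sequences (RefSeq, GRCm38.p6) run 5′ to 3′ along the gene, from chr19:43524556-43524855 on the minus strand for Got1 and chr14:55540016-55540315 on the plus strand for Pck2, with the match in capitals.
Got1: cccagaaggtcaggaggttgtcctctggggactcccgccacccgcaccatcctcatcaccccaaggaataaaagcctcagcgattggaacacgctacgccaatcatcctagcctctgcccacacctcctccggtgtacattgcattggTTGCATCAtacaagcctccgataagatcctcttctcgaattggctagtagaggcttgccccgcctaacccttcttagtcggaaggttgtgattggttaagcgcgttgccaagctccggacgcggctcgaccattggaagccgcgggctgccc
Pck2: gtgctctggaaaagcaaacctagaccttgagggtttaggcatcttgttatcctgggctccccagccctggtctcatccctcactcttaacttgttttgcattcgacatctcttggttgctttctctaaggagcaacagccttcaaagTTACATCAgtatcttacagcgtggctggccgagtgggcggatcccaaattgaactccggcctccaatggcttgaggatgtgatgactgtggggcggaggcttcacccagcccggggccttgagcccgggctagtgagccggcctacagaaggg
The letters describe these windows and show neither binding nor a cause. Of the other motifs searched the same way, the NRF1 core was in 2 of the 38 member promoters (5.26%, Dld and Sucla2), against 4.60% of all promoters. AAGGTCA, a core of oestrogen-related receptor sites, was in 2 of the 38 (5.26%, Got1 and Ogdh), against 4.72% of all. ACGTG, the core of hypoxia-inducible factor sites, was in 12 of the 38 (31.6%), against 19.6% of all. Those 12 belong to 7 members, and 6 of them are windows of Ogdh, some of which overlap. The AAGGTCA match of Got1 begins at -245, outside the capitals.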

How the data were processed

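RNA of 8 libraries was measured, 4 KO and 4 WT. The deposited table holds a normalised signal that the authors made for each gene in each library. Tools named per the submitters' processing notes were RSEM 1.3.1, CASAVA 1.8.2, limma and cutadapt 1.7.1, with the build GRCm38. For the aligner, annotation release and strand setting, nothing is stated: not given in the sources used here. From their spacing, values are a whole read number plus 0.5 over a scaled library size (tolerance 0.01), which gives depth. The main fit did not use counts, and only the voom alternative used the recovered read numbers. Values of at least 1 in at least 4 libraries were tested as log2(value + 1) with limma 3.58.1 in R 4.3.3 (trend, two-sided, Benjamini-Hochberg over 12163 genes). The fit was tested on simulated data with independent libraries, which lack the shared deviation of same-numbered libraries.

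Same-numbered KO and WT libraries correlated at 0.286 to 0.431 in their deviations from group means, other pairs at -0.374 to 0.0917. Pairing rests on this check alone: no label explains the numbers. The labels do not tie libraries to separate cohorts, so p-values measure the spread between these pools. Ratios of Pcx, Idh1, Mdh1, Got1 and Sucla2 to a partner were tested by exact permutation. Exon lengths and 50-base words come from GENCODE M21 (GRCm38), matched by gene ID for 12356 of 12367 rows. The members, lists, ratios and rules were chosen with earlier results of these data known. Named were Tfam, all members and the called neighbouring genes, except 1 that is counted but not reported here; Sdha, Sdhc, Sdhd, Slc25a12, Nop56, Mpc1-ps and 4930506C21Rik were added after their values were seen. Alternatives were other pseudocounts, filters, scalings, weights, thresholds, the block and left-out libraries.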

Additional observations from a re-analysis of the deposited data

Results flagged for a closer look

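Of 72 groups of 4 libraries examined (31 genes and 5 ratios in KO and in WT), 4 had a library whose distance from its nearest neighbour exceeded Dixon's 95% critical share of the group's range, and chance flags about 1 in 20 groups. Got1 was 36.3 in KO replicate 4, against 49.3 to 49.9 in the other KO libraries, and remained above the highest WT library. Idh3a was 56.0 in KO replicate 4, against 64.9 to 66.4 in the other KO libraries. Dlst was 133 in KO replicate 4, against 154 to 157 in the other KO libraries. Pdhx was 21.02 in KO replicate 2, against 18.5 to 18.8 in the other KO libraries. KO replicate 4 and WT replicate 4 also had the highest scores of their groups on the second principal component of all tested genes, at 14.1 and 25.6.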

How the results depend on the processing

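All 8 fallen members, and Idh3b, Pcx and Got1 among the risen, stayed called in every fit at the 0.05 threshold, except that a minimum value of 8 left Pcx untested. At an adjusted p under 0.01 the counts were 2 members higher and 6 lower, 7 neighbouring genes higher and 4 lower, and 1513 of all genes higher and 1543 lower. The risen members numbered 8 with library quality weights and with the replicate block, and 3 to 8 when a library was left out. The block changed no call of a member beyond the 6 it added. For the ratios, 4 pairs are too few for an exact p under 0.05; the differences stayed -0.58 (Idh1 over Idh2), -0.10 (Mdh1 over Mdh2), 1.67 (Got1 over Got2) and 0.78 (Pcx over Pdha1). Without both replicate-4 libraries, where 0.1 is the smallest p, they were -0.60, -0.12, 1.75 and 0.61. Leaving out a single library gave -0.67 to -0.52 for Idh1 over Idh2 and 0.65 to 0.91 for Pcx over Pdha1, with adjusted p of 0.0714 without WT replicate 4 for the first and without any KO library for the second.

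Values that crossed 0 were all of genes not called on either side. Under median centring Pdhb was 0.0033, Pdp1 0.016, Idh3g 0.018 and Ogdh 0.0052. Pdp1 was 0.026 under quantile normalisation, 0.023 with quality weights and 0.032 without both replicate-4 libraries, and Ogdh 0.021 and 0.026 in the last 2 fits. With 1 library left out the ranges were -0.062 to 0.026 for Pdhb, -0.070 to 0.096 for Pdp1, -0.036 to 0.14 for Idh3a, -0.033 to 0.027 for Idh3g, -0.045 to 0.047 for Ogdh and -0.015 to 0.037 for Mdh2. Voom weights and no further pseudocount, added after the data were seen, called the same 13 members. edgeR was not run. Among the members depth limits Pcx most, at 48 to 116 reads per library, and the neighbouring genes Acod1, Me1 and Ldhb had as few as 6, 15 and 23.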
